A study of Arabidopsis thaliana with 6 samples.

Results

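FK506-binding proteins (FKBPs) are a family of immunophilins, enzymes that turn the peptide bond before proline and so help proteins fold. In Arabidopsis thaliana a large branch of the family is carried into the thylakoid lumen, the space enclosed by the photosynthetic membranes, where it shares the work of folding and assembly with lumen cyclophilins, the other immunophilin family. Known roles of single members include the assembly of photosystem II, the stability of photosystem I and the makeup of the NADH dehydrogenase-like (NDH) complex. All of these proteins are encoded in the nucleus. The genes described here are the 10 named FKBP13, FKBP16-1, FKBP16-2, FKBP16-3, FKBP16-4, FKBP17-1, FKBP17-2, FKBP18, FKBP19 and FKBP20-2, taken by gene identifier, and all 10 were found among the 19807 genes of the deposited table.

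Their transcripts were measured by poly-A selected RNA sequencing in whole seedlings that were 8 days old and had grown in continuous light on a plant nutrient medium. The control was Col-0 wild type, with 3 libraries numbered 1 to 3. The other group was prp8a-14 in the Col-0 ecotype (also written prp8-14 in the labels), a line with a mutation in the gene of PRP8A, the protein at the centre of the spliceosome, with 3 libraries numbered 4 to 6. Libraries of a genotype are biological replicates per the series design. The mutant is a single allele, and the samples are whole plants, so that fewer cells of a type and less RNA per cell cannot be told apart. Counts on listed genes totalled 49126331 to 63069817 per library, and every pair of libraries of one genotype differed by more than sampling noise (chi-square over degrees of freedom, 8.005 to 15.78). Levels below are CPM, which sets each count against the library size scaled by the authors. The lowest count of any lumen FKBP in any library was 518, so counting error was small throughout. A log2 difference is prp8a-14 minus wild type, with its standard error (SE) from limma.

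The lumen FKBP transcripts were mostly higher in prp8a-14, and by very unequal amounts. FKBP16-4 stood 4.68-fold higher and FKBP16-3 1.89-fold higher, 7 others were 1.15-fold to 1.46-fold higher, and FKBP16-1 was lower, at 0.752 of its wild type level. Of the 10 genes 8 passed an adjusted p under 0.05 in the higher direction and 1 in the lower, where 17.9% of all genes passed as higher, 17.3% as lower and 35.2% in either direction. The libraries of the genotypes did not overlap for any of the 10, with 9 higher and 1 lower, against 24.3% and 23.7% of all genes. For FKBP17-1 the gap was only from 11.17 to 11.20 CPM, and it rests on the authors' scaling of library sizes. The genes were selected on protein family and location, but with their CPM values in these 6 libraries and the difference between the genotypes already known, so these counts are a description and no p is given for a lumen FKBP gene. The median log2 difference was 0.40 over the 10 genes and 0.0037 over all genes.

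**Figure D1:**
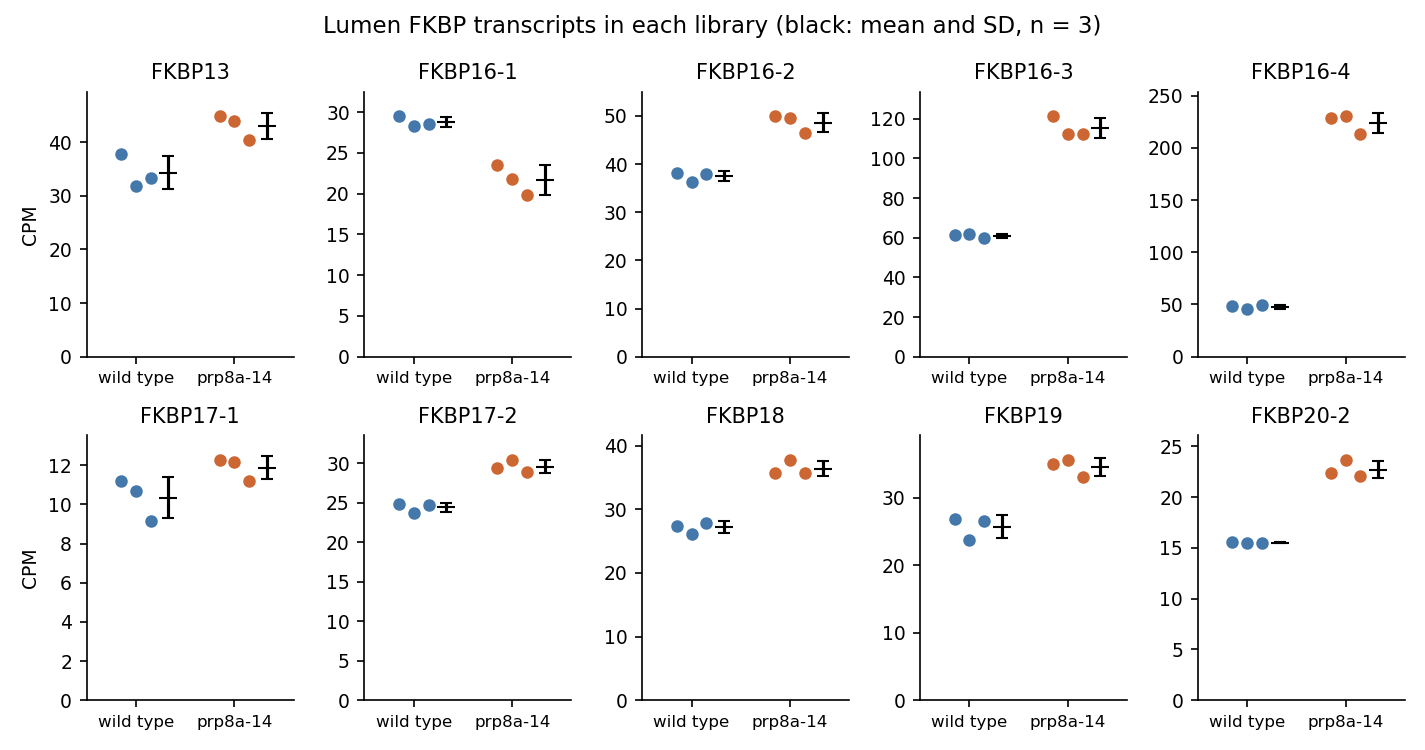
Level in CPM (vertical axes, each from 0) of the 10 lumen FKBP genes in each of the 3 wild type and 3 prp8a-14 libraries (points), with the mean and SD of each group in black. FKBP16-4 goes from 47.8 to 224 CPM, FKBP16-1 is the gene with lower mutant libraries, and the points of FKBP17-1 almost meet.

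FKBP16-4 (AT3G10060) showed the largest difference of the family. Its level was 48.5, 45.6 and 49.4 CPM in wild type replicates 1, 2 and 3, and 228, 230 and 213 CPM in prp8a-14 replicates 4, 5 and 6. All mutant libraries lay far above all wild type libraries, and replicate 6 was the lowest of the mutant group. The means were 47.8 CPM ± 2.03 and 224 CPM ± 9.33 (SD, n = 3), a log2 difference of 2.23 (SE 0.05). Among the 15760 genes with a mean of at least 5 CPM this was rank 3 of the rises, and rank 16 among all genes. In the gene models used here it has 10 exons, the most of the 10 genes, and the deposited table lists 1 transcript for it. FKBP19 followed with 9 exons, and whether exon number bears on the differences was not tested.

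FKBP16-3 (AT2G43560) came next. Its wild type libraries held 61.2, 61.9 and 59.7 CPM and its mutant libraries 121, 112 and 112 CPM, with means of 60.9 CPM ± 1.11 and 115 CPM ± 5.17 (SD, n = 3). The wild type libraries were close together, the mutant libraries were almost 2-fold above them, and the log2 difference was 0.92 (SE 0.04). It was rank 120 of the rises among the genes with a mean of at least 5 CPM. FKBP16-3 and FKBP16-4 were the only lumen FKBP genes with differences above those of every gene in the lists of lumen cyclophilins, other lumen proteins, transport genes and NDH genes given below, where the highest was 0.74. The antenna gene AT1G29920, one of the green tissue markers below, stood at 0.93, level with FKBP16-3. With quantile normalization AT1G29920 was at 0.63 and FKBP16-3 at 0.87.

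FKBP20-2 (AT3G60370), which is known to be needed for photosystem II supercomplexes to accumulate, had the next largest rise in the family. Its wild type libraries held 15.6, 15.5 and 15.5 CPM and were the most alike of any lumen FKBP gene, with an SD of 0.452% of the mean. The mutant libraries held 22.3, 23.7 and 22.1 CPM, all above wild type, and the log2 difference was 0.55 (SE 0.06). FKBP16-2 (AT4G39710), also called PnsL4, is a lumen subunit of the NDH complex, which returns electrons from photosystem I to the plastoquinone pool. It held 38.2, 36.4 and 38.0 CPM in the wild type libraries and 49.97, 49.5 and 46.4 CPM in the mutant libraries, without overlap (log2 difference 0.37, SE 0.05). FKBP13 (AT5G45680), a redox-sensitive isomerase that binds the Rieske protein of the cytochrome b6f complex, held 37.8, 31.8 and 33.4 CPM in the wild type libraries and 44.9, 43.9 and 40.4 CPM in the mutant libraries. Replicate 1 was the highest of its wild type libraries, and the groups were separate by a smaller margin (log2 difference 0.33, SE 0.07). Without that replicate the difference was 0.40.

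FKBP18 (AT1G20810) and FKBP19 (AT5G13410) had nearly the same difference. FKBP18 held 27.5, 26.1 and 27.9 CPM in the wild type libraries and 35.7, 37.8 and 35.6 CPM in the mutant libraries, a log2 difference of 0.42 (SE 0.05). FKBP19 held 26.8, 23.8 and 26.5 CPM in the wild type libraries and 34.9, 35.6 and 32.98 CPM in the mutant libraries, a log2 difference of 0.43 (SE 0.06). In both genes every mutant library was above every wild type library. FKBP17-2 (AT1G18170) held 24.8, 23.7 and 24.7 CPM in the wild type libraries and 29.4, 30.5 and 28.8 CPM in the mutant libraries, a separate but smaller step (log2 difference 0.28, SE 0.05; 0.18 with library totals as the scale). FKBP17-1 (AT4G19830), the least abundant of the family, held 11.2, 10.7 and 9.17 CPM in the wild type libraries and 12.3, 12.1 and 11.2 CPM in the mutant libraries. The highest wild type and lowest mutant libraries of FKBP17-1 were almost level, and its log2 difference of 0.20 (SE 0.09) was the one that did not pass the threshold. It was 0.11 with library totals and 0.12 without wild type replicate 3.

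FKBP16-1 (AT4G26555), which has been linked to the stability of the photosystem I subunit PsaL, went the other way. The wild type libraries held 29.5, 28.3 and 28.6 CPM of it and the prp8a-14 libraries 23.5, 21.8 and 19.9 CPM. Every mutant library was below every wild type library, and the mutant libraries were more spread, with an SD of 8.46% of the mean against 2.21% in wild type. The log2 difference was -0.41 (SE 0.07), and -0.35 without mutant replicate 6, the lowest library. The deposited table lists 3 transcripts for this gene, as it does for FKBP16-2 and FKBP19. The 4 genes named FKBP16 thus held the largest rise, the second largest, a middle one and the only lower value.

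Within each genotype the genes tended to be high or low in the same libraries. Mutant replicate 6 was the lowest of its group for 9 of 10 genes and the highest for 0. Wild type replicate 1 was the highest of its group for 7 genes, and replicate 2 the lowest for 7. These shifts were small beside the differences between genotypes for most genes, and the part of scaling in them was not tested. Every gene in the list of green tissue markers below was also lowest in replicate 6 among the mutant libraries. The share of all genes with these orders was not computed.

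To compare levels between genes, CPM was divided by the length of the longest annotated transcript, in kilobases. On this scale the wild type order was FKBP16-3 at 54.7 ± 1.00 CPM per kilobase (SD, n = 3), FKBP16-4 at 42.6 ± 1.81, FKBP13 at 38.3 ± 3.47, FKBP16-1 at 30.1 ± 0.664, FKBP16-2 at 26.8 ± 0.707, FKBP18 at 25.5 ± 0.888, FKBP19 at 23.5 ± 1.54, FKBP17-2 at 20.9 ± 0.508, FKBP20-2 at 13.2 ± 0.0594 and FKBP17-1 at 9.51 ± 0.964. The ranges over the libraries overlapped between FKBP16-4 and FKBP13 and between FKBP16-2 and FKBP18, and those of the other neighbours did not. Within each single wild type library FKBP16-4 was still above FKBP13, and FKBP16-2 above FKBP18. In the mutant FKBP16-4 was first, at 199 ± 8.31 CPM per kilobase (SD, n = 3), followed by FKBP16-3 at 104 ± 4.65 and FKBP13 at 48.1 ± 2.68. FKBP16-1 had moved from rank 4 to rank 8, at 22.7 ± 1.92.

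The makeup of the family moved accordingly. FKBP16-4 was 14.7%, 14.7% and 15.4% of the summed level per kilobase of the 10 genes in the wild type libraries and 37.4%, 38.1% and 37.4% in the mutant libraries. The share of FKBP16-1 was 10.6% ± 0.118 in wild type and 4.28% ± 0.222 in the mutant (SD, n = 3). FKBP16-3 kept nearly the same share, at 19.2% ± 0.763 and 19.6% ± 0.731 (SD, n = 3), since its own level moved by about as much as the sum. The summed level per kilobase was 285 ± 8.41 in wild type and 530 ± 19.6 in the mutant (SD, n = 3), a ratio of 1.86. Without FKBP16-4 the ratio was 1.36, and without FKBP16-3 as well it was 1.21.

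**Figure D2:**
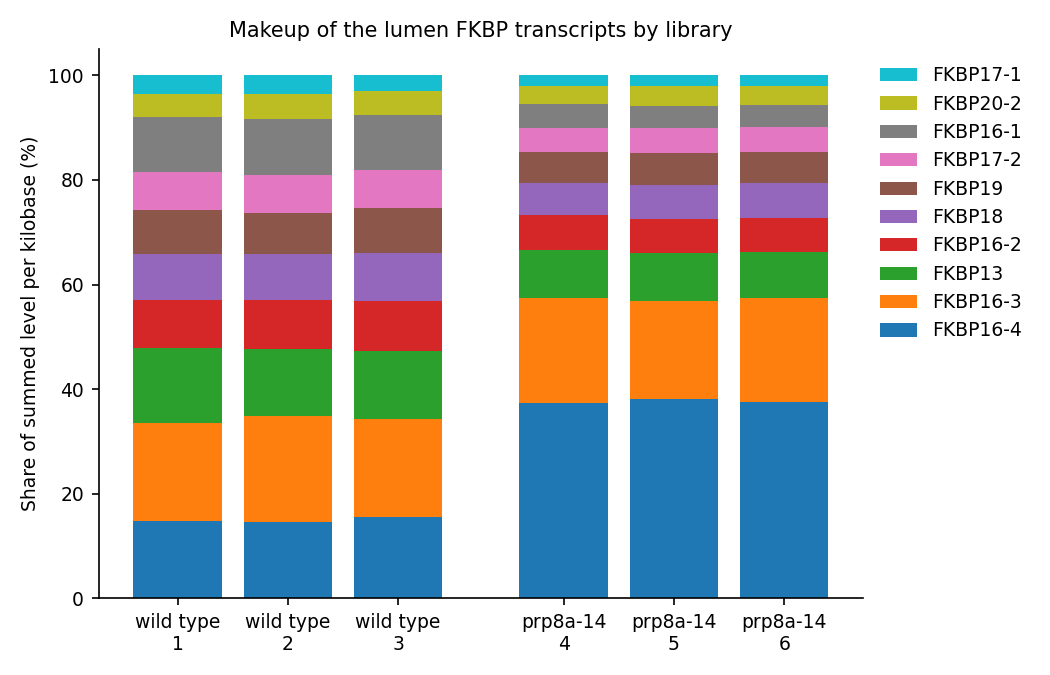
Share in percent of each gene in the summed level per kilobase of the 10 lumen FKBP genes (stacked bars), for each of the 6 libraries. FKBP16-4, at the bottom of the bars, goes from about 15% in wild type to over 37% in each mutant library.

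The remaining FKBP genes, most of them for other cell compartments, were compared next. Of 12 measured 2 rose and 5 fell (limma, adjusted over all genes), with a median log2 difference of -0.09. These were 16.7% and 41.7% of the list, against 17.9% and 17.3% of all genes, so the share that rose was near that of all genes. Both that rose are genes of chloroplast proteins. They were TIG, a chloroplast protein like the bacterial trigger factor, from 144 CPM ± 10.1 to 210.2 CPM ± 2.83 (SD, n = 3; log2 difference 0.55, limma adjusted p = 8.9e-06), and FKBP17-3, a close relative of FKBP17-1 and FKBP17-2, with a log2 difference of 0.30 (limma adjusted p = 0.0012). The protein of FKBP17-3 may be in the lumen too, but the gene is not among the 10 chosen by name. The 5 that fell belong to other compartments. FKBP53, a nuclear histone chaperone, fell by 0.28 (limma adjusted p = 0.00022), with levels of 109 CPM ± 1.99 and 89.6 CPM ± 1.97 (SD, n = 3). FKBP65 and its relative ROF1, co-chaperones of heat tolerance, fell by 0.27 and 0.16 (limma adjusted p = 0.022 and 0.0059). PAS1, which restrains cell division, fell by 0.16 and FKBP15-2, of the secretory pathway, by 0.15 (limma adjusted p = 0.018 and 0.029).

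Of these falls 3 lost their calls in some settings. FKBP15-2 lost its call in 6 of 13 alternative settings, among them any 1 wild type library or mutant replicate 4 or 5 left out (limma adjusted p of 0.052 to 0.099). PAS1 lost it without the variance trend and with replicate 1, 2 or 4 left out (0.057 to 0.063), and FKBP65 with replicate 3 (0.089) or 4 (0.076) left out. Without mutant replicate 4 the calls of this list were 2 and 2. FKBP53, ROF1, TIG and FKBP17-3 kept theirs in all 13 settings. With library totals ROF1 fell by 0.26, FKBP15-2 by 0.24 and PAS1 by 0.25. The other 5 had differences that did not pass. These were 0.11 for FKBP42, which acts in auxin transport, 0.03 for the cytosolic FKBP12, -0.04 for FKBP20-1, -0.07 for FKBP43 and -0.12 for FKBP15-1. FKBP15-1 did pass as lower with library totals (-0.21, limma adjusted p = 0.0074), with quantile normalization (-0.16, 0.033) and with replicate 6 left out (-0.16, 0.02). FKBP12 was at -0.07 with library totals. AT5G05420, a further gene of the list, was not analysed here.

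**Figure D3:**
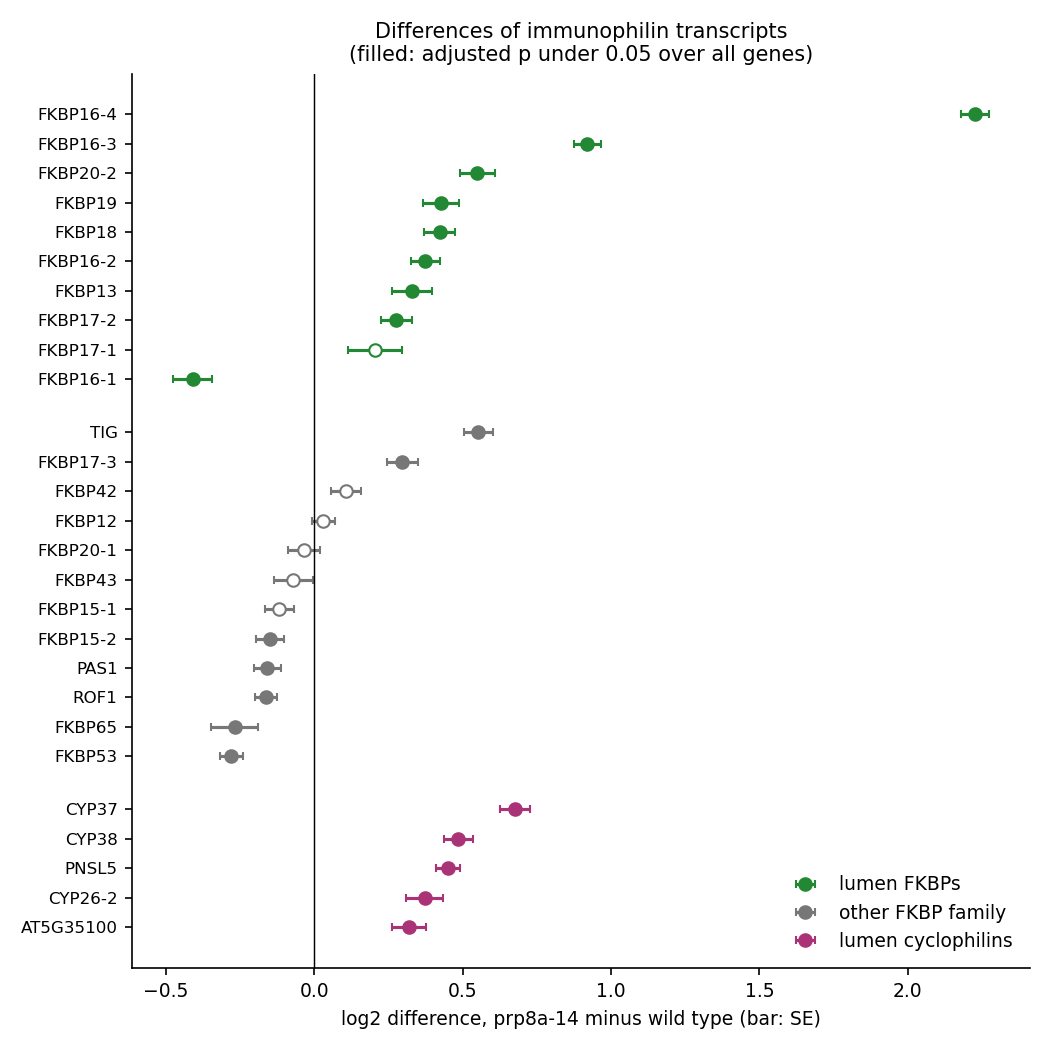
Log2 difference between prp8a-14 and wild type (horizontal axis, bars are SE) for the 10 lumen FKBP genes, 12 other FKBP family genes and 5 lumen cyclophilin genes. Filled points passed an adjusted p under 0.05 over all genes. FKBP16-4 lies apart at 2.23, FKBP16-1 is alone on the left among lumen immunophilins, and of the other FKBPs only the chloroplast genes TIG and FKBP17-3 are filled on the right.

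Lumen cyclophilins fold proteins in the same space as the lumen FKBPs. All 5 rose (limma, adjusted over all genes; adjusted p of 2.4e-06 to 0.001), with a median log2 difference of 0.45 and a range of 0.32 to 0.68. CYP37 rose by 0.68, with 28.7 CPM ± 0.744 in the wild type and 45.8 CPM ± 1.82 in the mutant group (SD, n = 3). CYP38, which is needed to assemble and repair photosystem II, rose by 0.49, from 174 CPM ± 5.59 to 244 CPM ± 13.7 (SD, n = 3). PNSL5, the cyclophilin subunit of the NDH complex, rose by 0.45, CYP26-2 by 0.37 and AT5G35100 by 0.32. The lumen FKBP differences had a wider range, from -0.41 to 2.23. With FKBP16-4, FKBP16-3 and FKBP16-1 set aside because of their own values, the rest ran from 0.20 to 0.55. These overlapped the cyclophilin range, with FKBP17-1 at 0.20 and FKBP17-2 at 0.28 below it.

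Of 34 other nuclear genes of lumen proteins 23 rose and 2 fell (limma, adjusted over all genes), with a median log2 difference of 0.39. With library totals the counts were 20 and 5. The largest rises were of PPD6, a PsbP-domain protein, by 0.74 (limma adjusted p = 8.9e-07), and of CTPA2, a protease that trims the D1 protein of photosystem II, by 0.64 (limma adjusted p = 1.9e-05). PPD3, another PsbP-domain protein, fell by 0.68, from 55.8 CPM ± 3.13 to 34.8 CPM ± 1.08 (SD, n = 3; limma adjusted p = 3.1e-06). PNSL3 fell by 0.22, a call that was lost without wild type replicate 1 (limma adjusted p = 0.062). FKBP16-1 was thus not the only gene of a lumen protein with a lower level.

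FKBP16-2 sits in the lumen part of the NDH complex together with PNSL1, PNSL2, PNSL3 and PNSL5, and these partners did not move as one. PNSL5 rose by 0.45 and PNSL3 fell by 0.22, while PNSL1 and PNSL2 rose by 0.20 each (limma adjusted p = 0.01 and 0.0095). PNSL1 and PNSL2 lost their calls with library totals (log2 differences of 0.10 and 0.11, limma adjusted p = 0.11 for each). PNSL1 also lost its call without the variance trend (limma adjusted p = 0.052). Over 16 nuclear NDH genes, which include these 4, 10 rose and 2 fell (limma, adjusted over all genes), with a median of 0.18. With library totals the counts were 5 and 2. PNSB5 rose by 0.45 (limma adjusted p = 1.4e-05) and ndhU fell by 0.37 (limma adjusted p = 0.00065).

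Lumen proteins reach their place through the Sec and Tat translocases of the thylakoid. Of 10 genes of these routes, of the processing peptidases and of the insertase ALB3, 7 rose and 1 fell (limma, adjusted over all genes; 7 and 3 with library totals), with a median of 0.35. The Tat subunit genes TATB and TATA rose by 0.54 and 0.52 (limma adjusted p = 5.1e-06 and 7.5e-06). The gene that fell was AGY1, which encodes the SecA motor of the Sec route, from 214 CPM ± 5.72 to 133 CPM ± 7.97 (SD, n = 3; log2 difference -0.68, limma adjusted p = 1.8e-06).

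**Figure D4:**
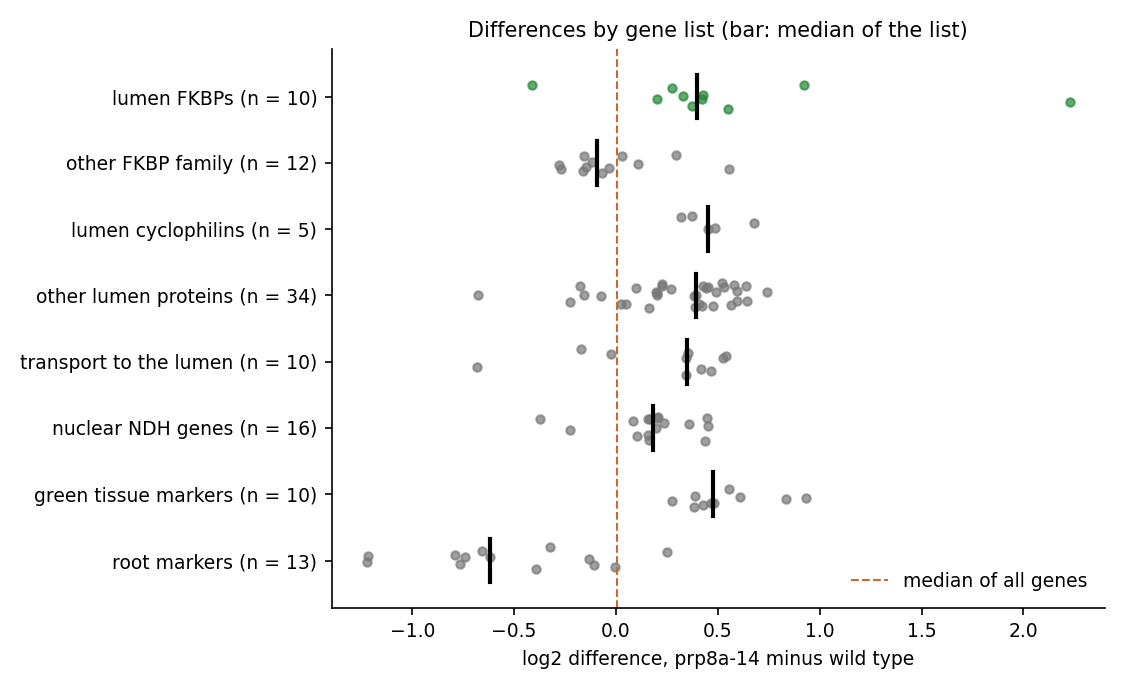
Log2 difference between prp8a-14 and wild type (horizontal axis) for each gene of the lumen FKBPs and of 7 comparison lists (points, spread vertically for sight), with the median of each list (black bar) and of all genes (dashed line). The medians of the lumen FKBPs, lumen cyclophilins and other lumen proteins are 0.40, 0.45 and 0.39, and that of the other FKBP family genes is -0.09.

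Markers of green tissue and of root moved beside these lists. All 10 green tissue markers rose (limma, adjusted over all genes), with a median of 0.47, and they summed to between 28800 and 30356 CPM in wild type libraries and between 40439 and 45108 CPM in mutant libraries. The largest rises were of the antenna genes AT1G29920 and AT1G29910, both listed as LHCB1.1, by 0.93 and 0.84 (limma adjusted p = 2e-06 and 2.9e-06). The antenna gene copies are alike in sequence and may share reads, so their single values are uncertain, and with quantile normalization AT1G29920 stood at 0.63 and AT1G29910 at 0.56. Of 13 measured root markers 1 rose and 9 fell, and they summed to between 212 and 237 CPM in wild type libraries and between 182 and 195 CPM in mutant libraries, with none at 0. The endodermis genes CASP5 and CASP4 fell by 1.22 each (limma adjusted p = 0.00065 and 8.9e-05; CASP5 by 0.77 with a pseudocount of 1 CPM), and SCR rose by 0.25 (limma adjusted p = 0.001; 0.16 with library totals). Plastid-encoded genes took between 0.811% and 0.940% of the counts of wild type libraries and between 1.53% and 1.997% of those of mutant libraries. The RNA was poly-A selected, so these shares need not follow the amount of plastid RNA. The differences of the green tissue markers ran from 0.28 to 0.93, and those of the 10 lumen FKBP genes from -0.41 (FKBP16-1) to 2.23 (FKBP16-4). The part of the marker and plastid shifts in the lumen FKBP differences was not tested.

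The genes next to each lumen FKBP gene on its chromosome were compared as well. Of the 40 nearest listed genes, 2 on each side of each gene, 8 rose and 3 fell (limma, adjusted over all genes), against 17.9% and 17.3% of all genes, with a median of 0.06. With quantile normalization the counts were 6 and 6, with library totals 5 and 10, and without mutant replicate 5 or without the variance trend 5 and 2. Beside FKBP16-4, TAF12, a subunit of a general transcription factor, rose by 0.40, from 15.7 CPM ± 1.57 to 20.7 CPM ± 0.741 (SD, n = 3; limma adjusted p = 0.0019). In the reference annotation FKBP16-4 and TAF12 lie on opposite strands and share 135 bases at their ends. No source used here gives whether strand was used in counting, so reads of the shared end may have been placed in either gene. OMR1, an enzyme of isoleucine synthesis on the other side, stood 0.12 higher (limma adjusted p = 0.046), and that call was lost in 9 of 13 alternative settings, among them any 1 library left out (limma adjusted p of 0.052 to 0.15) and library totals (0.02 on the log2 scale).

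Beside FKBP16-3, ATTI6, a trypsin inhibitor, fell by 0.33 and AT2G43590 rose by 0.26 (limma adjusted p = 0.0071 and 0.0054; AT2G43590 0.17 with library totals). Beside FKBP16-1, RGI3 rose by 0.31 and ATCBL3 fell by 0.14 (limma adjusted p = 0.00066 and 0.036), the second losing its call without the variance trend and with replicate 2, 3, 4 or 5 left out (0.075 to 0.12). FKBP17-1 lies beside AT4G19820, which rose by 0.59 from a low 3.20 CPM ± 0.662 (SD, n = 3; limma adjusted p = 0.012), and PP2A1, which rose by 0.16 (limma adjusted p = 0.022) and lost its call in 5 settings, among them those that left out replicate 3 (0.098) or 5 (0.077). FKBP17-1 and PP2A1, at 110 CPM ± 6.45 (SD, n = 3) in wild type far the more abundant, share 284 bases on opposite strands, so the low value of FKBP17-1 is uncertain. MPK8, beside FKBP17-2, fell by 0.22 (limma adjusted p = 0.0026). Beside FKBP18, OEP21A, which overlaps it by 4 bases, rose by 0.50 and PUB44 by 0.20 (limma adjusted p = 0.0033 and 0.021), the second losing its call in 5 settings, among them those that left out replicate 1 (0.077), 2 (0.073) or 5 (0.088). The neighbours of FKBP13, FKBP16-2, FKBP19 and FKBP20-2 gave no call.

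**Figure D5:**
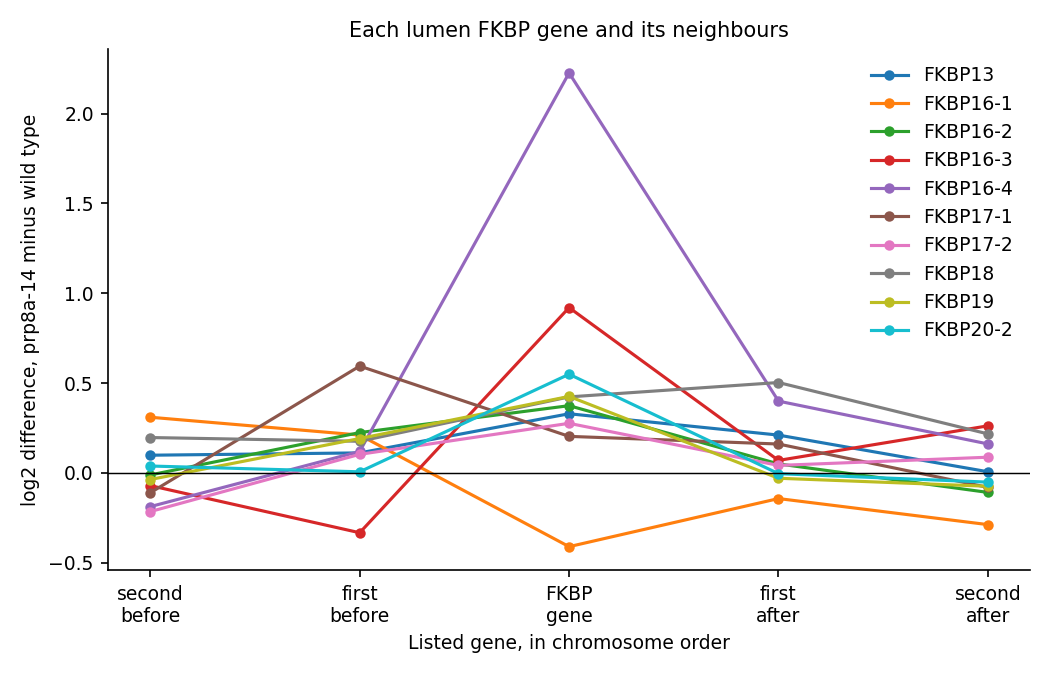
Log2 difference between prp8a-14 and wild type (vertical axis) for each lumen FKBP gene and the 2 nearest listed genes before and after it in chromosome order (lines join the genes around each member). FKBP16-4 stands at 2.23 between neighbours at 0.12 and 0.40, and FKBP16-1 at -0.41 between 0.21 and -0.14.

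Genes with a profile like that of FKBP16-4 over the 6 libraries were found by the root mean square difference of log2 values after each gene's mean was subtracted, among 15750 genes with a mean of at least 5 CPM. The nearest were the plastid-encoded RPS12A, a ribosomal protein gene, at 0.16, and CLPP1, a subunit of the plastid Clp protease, at 0.24. The nuclear genes GA20OX2, of gibberellin synthesis, and GPT2, a plastid sugar phosphate carrier, followed at 0.31 each, and the plastid-encoded RPL20 at 0.32. The levels (mean ± SD, n = 3) went from 4.13 ± 0.619 to 16.97 ± 1.24 CPM in RPS12A and from 28.1 ± 0.276 to 99.8 ± 11.1 CPM in CLPP1. GA20OX2 went from 3.77 ± 0.270 to 12.2 ± 2.00 CPM and GPT2 from 4.12 ± 0.818 to 14.0 ± 1.79 CPM. RPL20 went from 13.2 ± 0.986 to 40.3 ± 2.71 CPM. For the plastid-encoded RPS12A, CLPP1 and RPL20, counts from poly-A selected RNA need not follow the amount of their RNA. The filter of 5 CPM took the mean over all 6 libraries. RPS12A, GA20OX2 and GPT2 were below 5 CPM in wild type and passed it only through their higher mutant levels. Likeness on this measure rests mainly on the size of the difference between genotypes, since 6 libraries of 2 genotypes hold little else.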

How the data were processed

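One deposited table gives a log2 value per gene and library for poly-A selected RNA of 3 wild type and 3 prp8a-14 libraries. Tools in the submitters' processing notes, in no stated role, are STAR 2.5.1a, featureCounts 1.4.6-p5 of Subread, Salmon 0.8.2, limma, edgeR and bcl2fastq. Build, annotation and strand setting: not given in the sources used here. The deposited values are log2 of CPM with 0.5 added to each count, over library sizes scaled by the authors, since all gave whole counts (100% within 0.1). Each of 19807 genes was used once, leaving out 272 repeated lines. A further 3 columns of values by sample fit no sample label and stayed out. They may have entered the authors' scaling of library sizes, on which the CPM values and differences here rest, so library totals were also tried.

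Genes were compared with limma 3.58.1 (R 4.3.3), with an intensity trend, on the deposited log2 values of all genes. Tests were two-sided, with Benjamini-Hochberg adjustment over all genes, and an adjusted p under 0.05 was a call. The fit was tried on simulated counts with the same spread setting for every gene, so that trial does not cover the spread of these libraries. Exon numbers, transcript lengths, overlaps and gene order came from the RefSeq annotation of TAIR10.1, and tables and drawings from Python 3.11.15 with numpy 2.4.6, pandas 2.3.3 and matplotlib 3.10.9. Alternatives were quantile normalization, library totals, a mean of at least 5 CPM, no trend, pseudocounts of 0.1 and 1 CPM, each library left out and, chosen after seeing the data, voom weights. The genes described and the comparison lists were chosen with earlier results of these data known. Named were all lumen FKBPs, other FKBPs and lumen cyclophilins; from each other list up to 2 called rises and 2 called falls by size; called neighbours; the NDH partners of FKBP16-2; and the 5 profiles nearest to FKBP16-4.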

Additional observations from a re-analysis of the deposited data

How the results depend on the processing

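Over 13 alternatives none of the 10 lumen FKBP differences changed sign, and the same 9 genes passed the threshold in each. The filter of 5 CPM and the fit without trend leave the log2 differences as they are, so no sign could change there. FKBP16-4 ranged from 2.13 to 2.26, FKBP16-3 from 0.83 to 0.94 and FKBP16-1 from -0.51 to -0.35. Library totals moved every log2 difference by -0.095, and the median of all genes with them. With each library left out in turn, the lumen FKBP calls stayed at 9, those of the other FKBP genes ran from 4 to 8 and those of the neighbouring genes from 7 to 11; the lowest counts came without mutant replicate 4 and mutant replicate 5, and the cause was not tested. Leaving out a library gave 5 to 5 calls among lumen cyclophilins, 24 to 25 among other lumen proteins, 8 to 9 among transport genes and 10 to 11 among NDH genes. With library totals 7 NDH genes were called, 5 higher and 2 lower, against 10 and 2 in the main fit. With limma without trend 7 neighbouring genes were called. The cause of either change was not tested. FKBP12 changed sign, to -0.0093 with quantile normalization and -0.065 with library totals. Over all genes 6977 were called, 50.8% of them higher, and with library totals 7964, 26.5% of them higher. Of 39 called genes named from the comparison lists, the neighbours and the NDH partners, 29 kept their calls in every alternative that measured them. The 5 genes with profiles nearest to FKBP16-4 were not part of this count. No paired analysis was possible because the replicate numbers 1 to 3 and 4 to 6 are not shared between the genotypes.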
